A study of Mus musculus with 3 samples.

Results

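The interleukin-1 (IL-1) family of cytokines, with its receptors and inhibitors, was read on 3 expression arrays of mouse macrophages. The genes were *Il1a*, *Il1b*, *Il18* and *Il33* (ligands), *Il1r1*, *Il1rap* and *Il1rl1* (receptors), and *Il1r2*, *Il1rn* and *Il18bp* (inhibitors). All probe sets that the platform annotation assigns to 1 of these symbols alone were taken, which gave 16 of 45037 probe sets and 9 of the 10 genes, among 18193 genes in all. *Il1rl1*, which encodes the IL-33 receptor ST2, was not analysed here.

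The TAM arrays came from BALB/c mice carrying 4T1 tumors. 4T1 is a mammary carcinoma line of this strain that, once implanted in the mammary gland, spreads to the lung. mTAMs were tumor-associated macrophages from the metastatic lung, and pTAMs were those from the matched primary tumor, both isolated 5 weeks after the cells were inoculated. BMDM were macrophages differentiated in culture from bone marrow of healthy mice without a tumor, whose strain the labels do not give. The TAMs were sorted as positive for CD11b and F4/80, surface markers that monocytes and some granulocytes can also carry. The labels of the arrays do not give the ages of the mice, any pooling or any further sort for Ly6C. Each group had 1 array, so the values below have no error across animals and no test between groups was possible. BMDM differed from both TAM groups in culture, in tissue dissociation and in the health of the donor, and these cannot be told apart on these arrays.

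IL-1α and IL-1β bind the receptor IL-1R1, which then recruits the accessory protein IL1RAP and signals through the adaptor MyD88 to NF-κB. The family limits itself with a receptor antagonist (*Il1rn*), a decoy receptor without a signaling domain (*Il1r2*) and a secreted protein that captures IL-18 (*Il18bp*). Macrophages and neutrophils are known as main sources of IL-1β in inflamed and tumor tissue, where the cytokine recruits further myeloid cells.

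The proximal promoters of 5 of these genes are shown because the ligands, the accessory receptor and the inhibitors differed in how far their levels moved between the arrays. The sequences are the 150 bases before the transcription start in RefSeq (GRCm38.p6, the reference strain and not BALB/c), written on the strand of the gene. For *Il1rn* the most upstream of its start sites was used, and which form of the protein each start serves was not analysed here. Capitals mark the TATA box (TATAAA, strand of the gene) and matches to the AP-1 motif (TGANTCA, either strand), which do not overlap.
*Il1a* (chr2:129309973-129310122, minus strand): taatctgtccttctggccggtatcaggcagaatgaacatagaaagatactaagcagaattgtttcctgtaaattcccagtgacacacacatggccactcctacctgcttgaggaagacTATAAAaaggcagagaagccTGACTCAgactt
*Il1b* (chr2:129371140-129371289, minus strand): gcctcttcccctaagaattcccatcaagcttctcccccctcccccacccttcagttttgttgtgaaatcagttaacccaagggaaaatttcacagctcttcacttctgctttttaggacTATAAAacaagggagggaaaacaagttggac
*Il1rap* (chr16:26581555-26581704, plus strand): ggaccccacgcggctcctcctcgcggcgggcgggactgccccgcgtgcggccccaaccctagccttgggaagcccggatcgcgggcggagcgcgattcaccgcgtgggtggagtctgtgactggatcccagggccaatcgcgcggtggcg
*Il1r2* (chr1:40085943-40086092, plus strand): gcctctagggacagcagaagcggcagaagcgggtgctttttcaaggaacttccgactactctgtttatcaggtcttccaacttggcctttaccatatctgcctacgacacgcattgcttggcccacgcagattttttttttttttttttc
*Il1rn* (chr2:24336710-24336859, plus strand): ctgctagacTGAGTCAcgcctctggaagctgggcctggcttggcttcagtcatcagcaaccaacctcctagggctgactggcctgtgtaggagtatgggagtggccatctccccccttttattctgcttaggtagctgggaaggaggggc

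The promoters of *Il1a* and *Il1b*, which are neighbors on chromosome 2, both held a TATA box close to the start, beginning at position -32 in *Il1a* and at -31 in *Il1b*. A TATA box beginning between -35 and -25 was present in 1.75% of 32851 mouse promoters of the same length, 300 bases from 250 before to 50 after the start. The only other such match among the 15 promoters of the 10 genes was in *Il33*, at -29 from its downstream start. The AP-1 motif was found in 2 of the 15 promoters, at -12 in *Il1a* and at -141 in the upstream *Il1rn* promoter, against 7.81% of all promoters. The downstream *Il1rn* promoters held no AP-1 match. No promoter of the family held the strict NF-κB motif searched (GGGA and TTTCC with 1 base of any kind between them, either strand; 0.411% of all promoters) or the CRE motif (TGACGTCA; 1.79%). The short C/EBP motif (TTNNGNAA, either strand) was found in 11 of the 15, against 40.7% of all promoters. Counted by gene it was found in 7 of 10. Several of the 15 promoters belong to the same gene, and the downstream *Il1rn* windows overlap and hold the same sites. The promoters of *Il1rap* and *Il1r2* had neither a TATA box nor an AP-1 match. That of *Il1rap* had a G+C content of 72%, against 44.7% in *Il1a*, 45.7% in *Il1b*, 51.3% in *Il1r2* and a median of 52.7% over all promoters. These are matches of letters in a short window, and no binding was measured.

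All 9 measured genes had their lowest value in BMDM. Values are log2 units of probe set signal, and a value at or below 5.3, the level under which 95% of the values of sensory receptor genes lay, was treated as background and is called the floor here. Above the floor were 9 of the genes in mTAMs, 9 in pTAMs and 6 in BMDM, where *Il1a*, *Il1b* and *Il33* were below it. Of the 16 probe sets, 13 exceeded the floor on 1 or more arrays. A difference of at least 1 log2 unit, that is 2-fold, was called higher or lower. Fewer cells of a type and less RNA per cell cannot be told apart in such bulk samples.

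**Figure D1:**
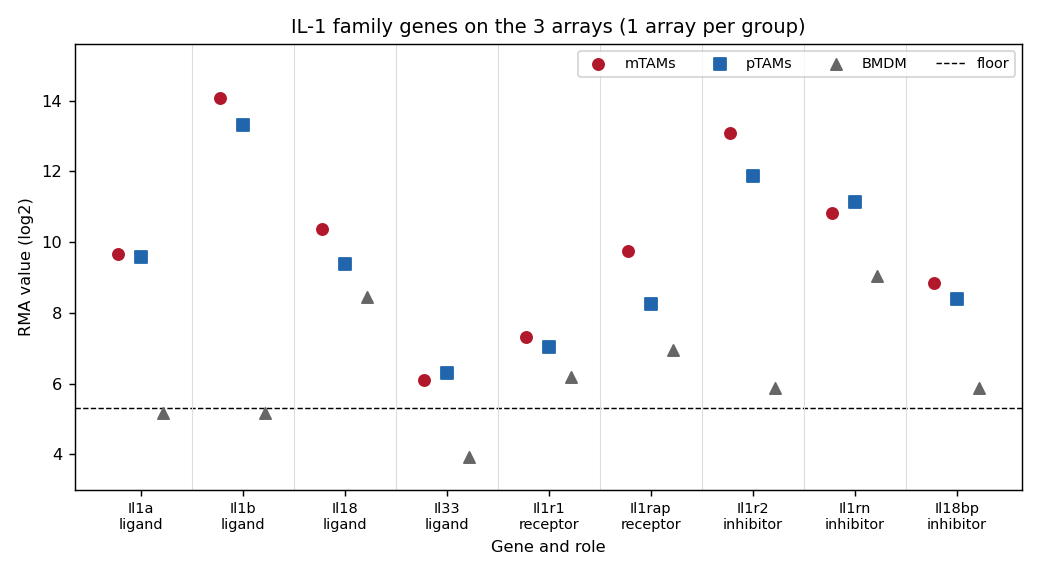
RMA values (log2) of the 9 measured genes on the mTAM (circles), pTAM (squares) and BMDM (triangles) arrays, 1 array per group, with the floor at 5.3 as a dashed line. BMDM are lowest for each gene, and *Il1a*, *Il1b* and *Il33* are below the floor there; heights of different genes are not comparable, since their probe sets differ.

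Among the ligands, the genes for IL-1β and IL-1α had high signal in both TAM groups and were at background in BMDM. *Il1b*, which encodes the secreted form that caspase-1 matures, had 14.08 in mTAMs, 13.30 in pTAMs and 5.16 in BMDM. The mTAM and pTAM values were close to each other and far above BMDM, where the gene was at background. The value in mTAMs exceeded that in pTAMs by 0.78 (1.72-fold). *Il1a*, whose product is active without cleavage and is released by dying cells, had 9.65 in mTAMs, 9.58 in pTAMs and 5.17 in BMDM. Relative to BMDM it was higher by at least 20.4-fold in mTAMs and at least 19.4-fold in pTAMs, with a difference of 0.07 between mTAMs and pTAMs. Both genes of this pair were thus at background in BMDM, and *Il1a* was nearly level between the TAM groups.

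Among *Il1a*, *Il1b*, *Il18* and *Il33*, only *Il18*, whose product induces interferon-γ in T and NK cells, was above the floor in BMDM. It had 10.36 in mTAMs, 9.37 in pTAMs and 8.44 in BMDM. The values stepped down in that order by about equal amounts, with mTAMs 3.78-fold higher than BMDM, pTAMs 1.91-fold higher than BMDM, and mTAMs 1.99-fold higher than pTAMs, just under the threshold. *Il33*, which encodes an alarmin kept in the nucleus of barrier and stromal cells, had 6.11 in mTAMs, 6.31 in pTAMs and 3.91 in BMDM. Both TAM values were only slightly above the floor. Set against the floor, *Il33* exceeded BMDM by at least 1.75-fold in mTAMs and at least 2.01-fold in pTAMs.

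The receptor genes differed less between TAMs and BMDM than *Il1a* and *Il1b* did. *Il1r1*, the signaling receptor of IL-1α and IL-1β, had 7.31 in mTAMs, 7.02 in pTAMs and 6.19 in BMDM. It was not far above the floor on any array, and it was 2.17-fold higher in mTAMs and 1.78-fold higher in pTAMs than in BMDM. Its second probe set read 2.70 on each array, below the floor, and gives no information on this gene.

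*Il1rap*, the accessory chain shared by the receptors of IL-1, IL-33 and IL-36, had 9.75 in mTAMs, 8.25 in pTAMs and 6.96 in BMDM on the probe set with the highest mean. It showed the largest difference between mTAMs and pTAMs in the family (2.83-fold higher in mTAMs) and was 6.92-fold higher in mTAMs and 2.45-fold higher in pTAMs than in BMDM. Another probe set read 10.25, 7.95 and 5.79 on the mTAM, pTAM and BMDM arrays, and a further one 8.28, 6.75 and 5.15. Each of these 3 probe sets had the same order of arrays, and their differences between mTAMs and pTAMs were 1.50, 2.30 and 1.53. Against BMDM the measured differences ran from 2.79 to 4.46 in mTAMs and from 1.29 to 2.16 in pTAMs. The remaining 2 probe sets were below the floor on all arrays. Alternative transcripts of this gene are known to encode a soluble form, and which transcripts the probe sets detect was not analysed here.

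**Figure D2:**
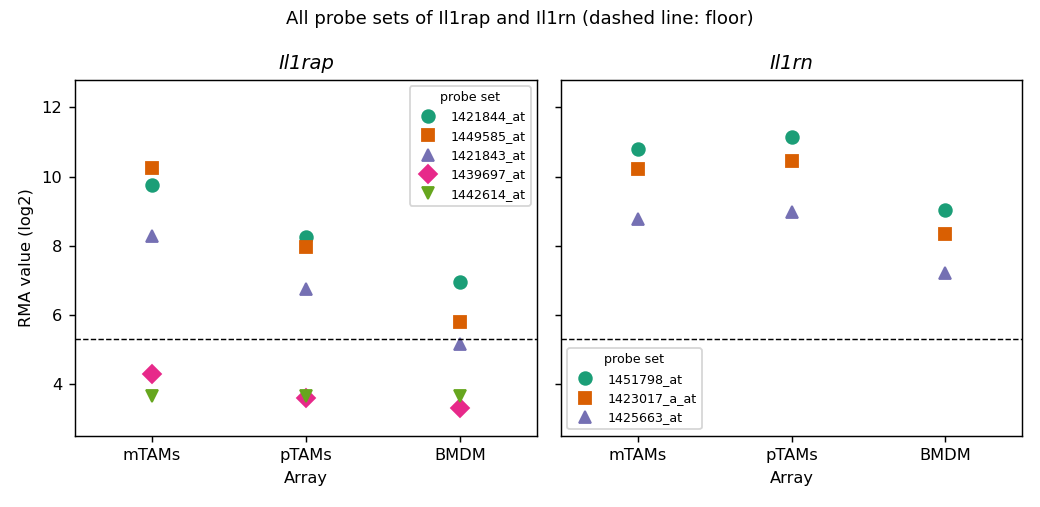
RMA values (log2) of every probe set of *Il1rap* (left, 5 probe sets) and *Il1rn* (right, 3 probe sets) on the mTAM, pTAM and BMDM arrays, with the floor as a dashed line. The *Il1rap* probe sets above the floor are highest in mTAMs, whereas those of *Il1rn* are slightly higher in pTAMs than in mTAMs.

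The inhibitor genes were higher in both TAM groups as well, and the decoy receptor gene moved most. *Il1r2*, whose product binds IL-1 without signaling, had 13.09 in mTAMs, 11.88 in pTAMs and 5.86 in BMDM. Both TAM arrays were far above BMDM, by 150-fold for mTAMs and 64.9-fold for pTAMs, and mTAMs were 2.31-fold higher than pTAMs. The BMDM value was only slightly above the floor of 5.3, so the sizes of the folds against BMDM are uncertain.

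*Il1rn*, the receptor antagonist gene, had 10.81 in mTAMs, 11.14 in pTAMs and 9.03 in BMDM. It was already well above the floor in BMDM, and relative to that it was 3.43-fold higher in mTAMs and 4.32-fold higher in pTAMs. Its other probe sets gave differences of 1.87 and 1.57 for mTAMs and of 2.10 and 1.76 for pTAMs against BMDM. *Il1rn* was 1 of 2 genes of the family, with *Il33*, whose value was lower in mTAMs than in pTAMs (differences of -0.33 and -0.20), and all 3 *Il1rn* probe sets had that sign, from -0.33 to -0.19. *Il18bp*, the secreted inhibitor of IL-18, had 8.83 in mTAMs, 8.38 in pTAMs and 5.88 in BMDM, which was 7.73-fold higher in mTAMs and 5.66-fold higher in pTAMs than in BMDM.

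Counted over the family, 9 of 9 measured genes were called higher in mTAMs against BMDM and none was called lower, where 11.5% of all 11945 compared genes were higher and 14.4% were lower (1368 and 1715 genes, against 1548 and 1259 after cyclic loess normalization). With the BMDM value of *Il33* lifted to the floor, this gene no longer passed 2-fold in mTAMs (0.81). In pTAMs against BMDM, 7 of 9 were called higher, all but *Il18* and *Il1r1*, and none was lower, against 8.78% and 7.5% of 11859 genes. Between mTAMs and pTAMs, *Il1rap* and *Il1r2* were called higher, 2 of 9 genes, and none was lower, against 5.36% and 2.58% of 11801 genes. The median differences of the family were 2.79, 2.40 and 0.45 in these comparisons, and those of all genes -0.11, -0.05 and -0.06.

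*Il1a*, *Il1b* and *Il33* entered the comparisons with BMDM through their TAM values alone and so could only be higher there. Of the 6 genes above the floor on both arrays, 6 were called higher in mTAMs against BMDM (9.03% of 11089 such genes) and 4 in pTAMs against BMDM (6.65% of 11107). Among these 6, *Il1r2* (5.86), *Il18bp* (5.88) and *Il1r1* (6.19) were within 1 log2 unit of the floor in BMDM. With both arrays above the floor, they could not be called lower against BMDM either. Between mTAMs and pTAMs all 9 were above the floor on both arrays, and the 2 called higher stood against 4.68% of 11353 genes. The comparisons with BMDM share the BMDM array, so a low or high reading of that array moves both. The only technical spread to set them against was that between probe sets of a gene, with an SD of 0.441 for mTAMs against BMDM, 0.347 for pTAMs against BMDM and 0.265 for mTAMs against pTAMs. The differences of *Il1a* and *Il33* between mTAMs and pTAMs were smaller than this spread, while that of *Il1r1* (0.29) and that of *Il1rn* were slightly above it.

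**Figure D3:**
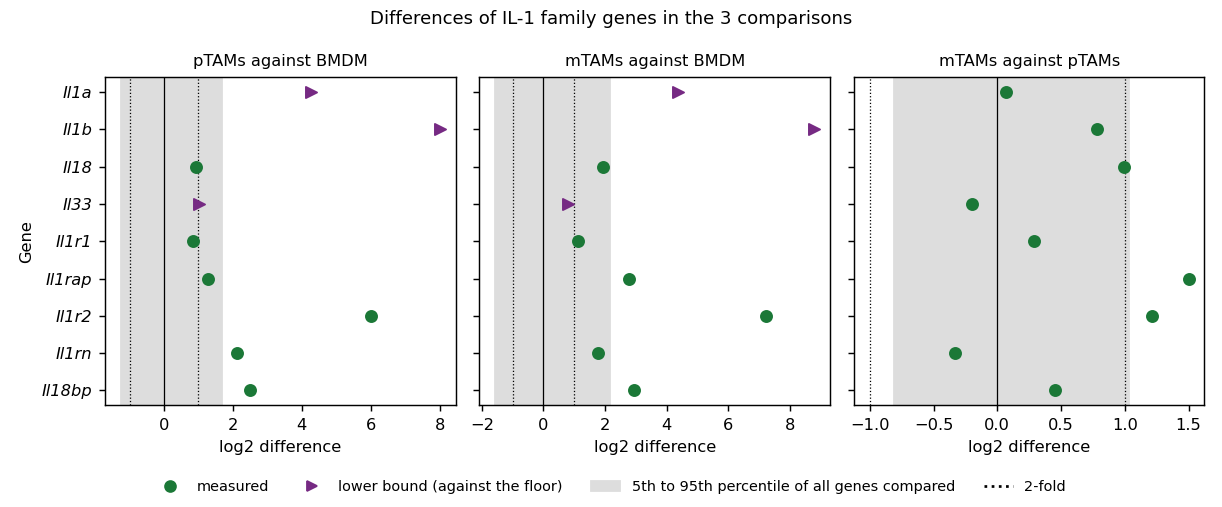
Log2 differences of the 9 genes for pTAMs against BMDM (left), mTAMs against BMDM (middle) and mTAMs against pTAMs (right, on a narrower axis); triangles are lower bounds against the floor, dotted lines 2-fold, and the grey band the 5th to 95th percentile of all compared genes. *Il1b*, *Il1r2* and *Il1a* lie far outside the band in both comparisons with BMDM, and *Il1rap* and *Il1r2* lie past 2-fold between mTAMs and pTAMs.

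Ligands and inhibitors did not move by the same amount. The difference of *Il1b* from BMDM exceeded that of *Il1rn* by 7.0 log2 units in mTAMs and by 5.89 in pTAMs with BMDM values lifted to the floor, and that of *Il1a* exceeded it by 2.57 and 2.17. The decoy gene *Il1r2* exceeded its signaling counterpart *Il1r1* by 6.11 in mTAMs and 5.19 in pTAMs. For the IL-18 pair the inhibitor moved more, and the difference of *Il18* minus that of *Il18bp* was -1.03 in mTAMs and -1.57 in pTAMs. Between mTAMs and pTAMs the gaps were smaller for *Il1b* over *Il1rn* (1.11), *Il1a* over *Il1rn* (0.40) and *Il1r2* over *Il1r1* (0.92). The IL-18 pair changed sign there, and *Il18* moved more than *Il18bp* (0.54). *Il1rap* exceeded *Il1r1* by 1.67 in mTAMs and 0.46 in pTAMs against BMDM, and by 1.21 between mTAMs and pTAMs. All these gaps compare differences, not amounts of ligand, receptor and inhibitor, which probe sets of different genes cannot give.

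The other receptors of the family that stood on the arrays included both chains of the IL-18 receptor. *Il18rap*, its accessory chain, had 10.31 in mTAMs, 8.36 in pTAMs and 6.72 in BMDM, and *Il18r1*, its binding chain, had 7.41 in mTAMs and was below the floor in pTAMs (4.57) and BMDM (4.32). mTAMs thus exceeded pTAMs by 3.86-fold in *Il18rap* and by at least 4.32-fold in *Il18r1*. *Il1rl2*, the IL-36 receptor, had 7.02 in mTAMs and 7.44 in pTAMs, and lay below the floor in BMDM (4.54). *Sigirr*, an inhibitory receptor, was level with 6.86, 7.02 and 6.92 in mTAMs, pTAMs and BMDM, and *Il1rapl1* and *Il1rapl2* were below the floor on all arrays. In RefSeq, *Il1r2*, *Il1r1*, *Il1rl2*, *Il1rl1*, *Il18r1* and *Il18rap* lie next to each other in this order on chromosome 1, and the 5 of them measured did not move alike, from 1.12 for *Il1r1* to 7.23 for *Il1r2* in mTAMs against BMDM. Of further ligands, *Il1f10* (IL-38) was near the floor with 5.56, 5.56 and 5.64 in mTAMs, pTAMs and BMDM, and the IL-36 genes were not analysed here.

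In the shared signal chain below these receptors, most genes stayed within 2-fold, as did most genes on the arrays. Of 15 measured genes from *Myd88* to the IKK complex, 4 were called higher in mTAMs against BMDM, 2 in pTAMs against BMDM and 0 in mTAMs against pTAMs (1 after cyclic loess normalization). None was called lower. Of all genes, 11.5%, 8.78% and 5.36% were called higher in these comparisons, and 14.4%, 7.5% and 2.58% lower. The medians of the 15 genes were 0.24, 0.33 and 0.02, and those of all genes -0.11, -0.05 and -0.06. The 4 genes were *Peli2* and *Peli1*, ubiquitin ligases of the IRAK complex (3.16-fold and 2.69-fold), the adaptor *Myd88* (2.43-fold) and the kinase *Irak2* (2.35-fold). *Myd88* had 11.38 in mTAMs, 10.43 in pTAMs and 10.10 in BMDM.

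Genes that mature and release the cytokines were mixed. Of 10 measured, 4 were called higher in mTAMs against BMDM and 2 in pTAMs against BMDM, with medians of 0.40 and 0.16, where 11.5% and 8.78% of all genes were called higher. Set against pTAMs, mTAMs had 2 higher and 1 lower, where 5.36% and 2.58% of all genes were called so. *Casp1*, which cleaves pro-IL-1β and pro-IL-18, had 9.77 in mTAMs, 9.68 in pTAMs and 10.48 in BMDM, so that it was the highest in BMDM, where *Il1b* was at background (*Casp1* was singled out after its values were seen). *Casp4*, which encodes the mouse caspase-11 of the non-canonical inflammasome, had 10.86 in mTAMs, 9.80 in pTAMs and 8.34 in BMDM (5.74-fold higher in mTAMs and 2.75-fold higher in pTAMs than in BMDM). *Nlrp3*, the inflammasome sensor, was 2.19-fold higher in mTAMs than in BMDM, and its adaptor *Pycard* was 2.30-fold lower in mTAMs (10.03) than in pTAMs (11.23), with 10.69 in BMDM. This lower call, the only one in the list, was lost with the mean of all probe sets. The granule proteases *Prtn3* and *Ctsg*, which can cut pro-IL-1β outside the inflammasome, exceeded BMDM in mTAMs by at least 20.3-fold and by 6.36-fold, and of them *Prtn3* alone was also higher in pTAMs (at least 18.1-fold). *Elane*, a further protease of this kind that was named after its values were seen, was near the floor with 5.89 in mTAMs, 5.48 in pTAMs and 5.42 in BMDM.

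Genes known from other work to respond to IL-1 were mostly higher in TAMs. Of 16 compared, 12 were called higher in mTAMs against BMDM and 1 lower (median 4.92, or 4.89 with low values lifted to the floor). In pTAMs against BMDM, 12 were called higher and 0 lower (3.65, or 3.54). Of all genes, 11.5% and 8.78% were called higher in these comparisons, and 14.4% and 7.5% lower. Between mTAMs and pTAMs, 5 were higher and 2 were lower (0.58), against 5.36% and 2.58% of all genes. *Nfkbiz*, an inducible NF-κB cofactor, had 12.55 in mTAMs, 11.07 in pTAMs and 6.60 in BMDM, and *Tnfaip3*, a feedback inhibitor of the pathway, had 12.15, 10.48 and 7.62. Both were called higher in mTAMs against pTAMs (2.79-fold and 3.18-fold), where *Saa3* and *Lcn2* moved more (3.76-fold and 3.56-fold). *Ccl2*, a chemokine for monocytes, ran the other way, with 10.26 in mTAMs, 11.66 in pTAMs and 12.65 in BMDM, and *Csf3*, which encodes the granulocyte growth factor, had 6.60 in mTAMs, 7.67 in pTAMs and 4.59 in BMDM. These genes answer to many stimuli, and *Lcn2* of the list is also a neutrophil marker.

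**Figure D4:**
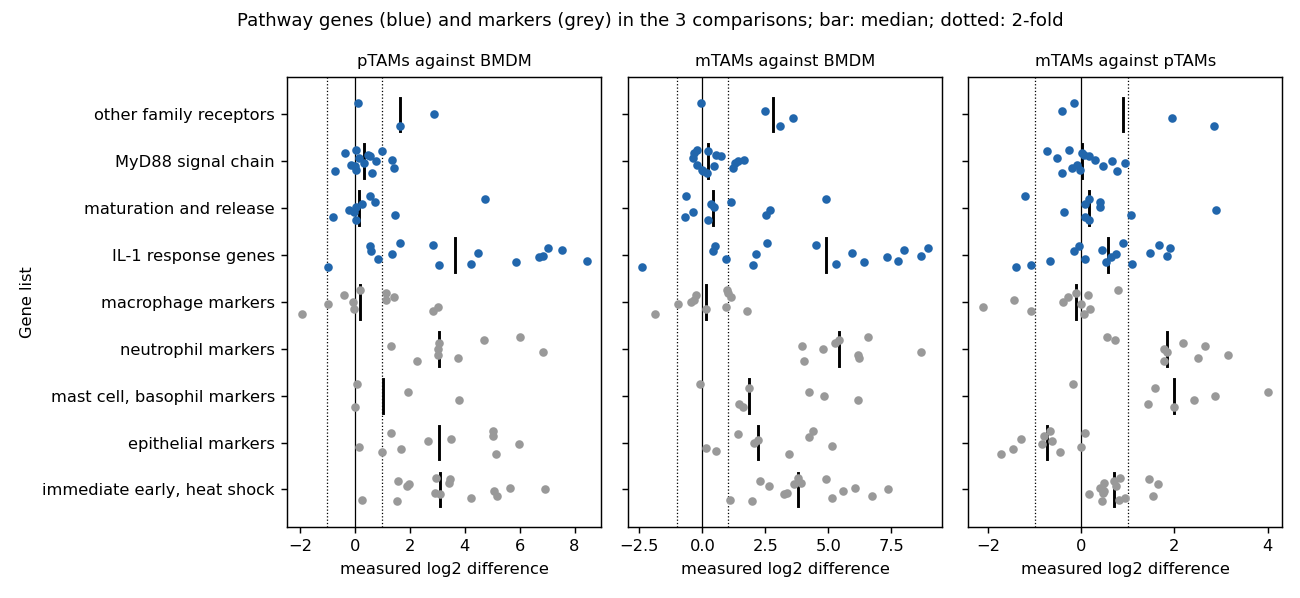
Measured log2 differences of single genes (points) in pathway lists (blue) and marker lists (grey) for pTAMs against BMDM (left), mTAMs against BMDM (middle) and mTAMs against pTAMs (right), with black bars at the medians and dotted lines at 2-fold. Most genes of the MyD88 chain lie within 2-fold, as do most genes on the arrays. The IL-1 response genes, the neutrophil markers and the immediate early and heat shock genes lie mostly above 2-fold against BMDM.

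Markers of some other cells moved in the same direction as the family on these arrays, and those of others did not. Macrophage markers were present in all groups, with 11 of 11 above the floor and summed levels (log2 of the sum of linear values) of 15.61 in mTAMs, 15.72 in pTAMs and 15.82 in BMDM. Of them, 3 were called higher (5 after cyclic loess normalization) and 1 lower in mTAMs, and 5 higher and 1 lower in pTAMs, against BMDM. In mTAMs against pTAMs 0 were higher and 3 were lower, with differences of -2.11 for *Cd163*, -1.45 for *Fcgr1* and -1.08 for *Aif1*. *Adgre1*, which encodes F4/80, was 3.66-fold lower in mTAMs and 3.81-fold lower in pTAMs than in BMDM. Neutrophil markers had summed levels of 16.22, 15.02 and 10.70 in mTAMs, pTAMs and BMDM. Of them, 9 of 9 were called higher in each TAM group against BMDM and 7 of 9 in mTAMs against pTAMs. Over all genes, 11.5% were called higher and 14.4% lower in mTAMs against BMDM. These shares were 8.78% and 7.5% in pTAMs against BMDM, and 5.36% and 2.58% in mTAMs against pTAMs. They stand beside every marker count given here and below. Neutrophils are known to express *Il1b* and *Il1r2*. *Csf3r* and *Cxcr2*, receptors of neutrophils, had 12.52 and 11.32 in mTAMs, 10.02 and 8.18 in pTAMs, and 6.28 and 5.14 in BMDM. This order of the arrays held for 7 of the 9 measured genes of the family, all but *Il33* and *Il1rn*. It also held for the marker sums below of mast cells and basophils, lung epithelium, alveolar macrophages, and immediate early and heat shock genes. The joint sum of fibroblasts and endothelium shared it through its fibroblast genes, and the T cell and epithelial sums did not share it. The 3 other neutrophil markers of the list were not analysed here, and none of the 9 measured was below the floor on all arrays. The part of neutrophil RNA in the differences of the family was not tested.

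Mast cells and basophils, which can carry receptors for IL-33 and IL-18, had marker sums of 12.72 in mTAMs, 10.37 in pTAMs and 8.42 in BMDM. Most of the sum in both TAM groups came from *Hdc*, the histamine-forming enzyme, with 12.40 in mTAMs, 9.99 in pTAMs and 6.20 in BMDM. These values lay close to those of the neutrophil receptor gene *Csf3r* (12.52, 10.02 and 6.28). The sum therefore does not set mast cells and basophils apart from neutrophils on these arrays. Of their compared markers, 6 of 7 were called higher in mTAMs against BMDM, 2 of 4 in pTAMs against BMDM and 6 of 7 in mTAMs against pTAMs. The 2 in pTAMs became 1 with low values lifted to the floor or with the mean of all probe sets. *Mcpt8*, a basophil protease, had 8.90 in mTAMs, 4.89 in pTAMs and 4.66 in BMDM, while *Mcpt4*, *Tpsb2*, *Cma1* and *Fcer1a* were below the floor on all arrays. T and innate lymphoid cell markers summed to 10.19 in mTAMs, 10.62 in pTAMs and 10.63 in BMDM, with 2 of 7 called higher (1 with low values lifted to the floor) and 1 lower in mTAMs and 1 of 7 called higher in pTAMs against BMDM. The largest value in each group was that of *Il7r*, with 8.82 in mTAMs, 10.08 in pTAMs and 10.19 in BMDM, whereas *Cd3d*, a chain of the T cell receptor complex, had 8.31 in mTAMs, 6.03 in pTAMs and 5.86 in BMDM. *Cd3g* and *Foxp3* were below the floor on all arrays.

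Epithelial and carcinoma markers summed to 11.50 in mTAMs, 12.29 in pTAMs and 9.10 in BMDM, with 7 of 9 called higher in mTAMs and 9 of 10 in pTAMs against BMDM, and with *Krt14* and *Cldn7* below the floor on all arrays. Lung epithelium markers summed to 12.67 in mTAMs, 10.25 in pTAMs and 9.90 in BMDM (5 of 10 and 0 of 6 called higher). Most of the mTAM sum came from *Scgb1a1*, with 12.17 there and values below the floor in pTAMs and BMDM. Alveolar macrophage markers summed to 13.99 in mTAMs, 11.82 in pTAMs and 9.0 in BMDM (8 of 9 and 4 of 5 called higher). The largest in both TAM groups was *Chil3*, with 13.5 in mTAMs and 11.2 in pTAMs. In pTAMs, *Siglecf*, *Marco*, *Fabp1* and *Krt79* were below the floor, and *Pparg* was called lower than in BMDM (-2.46). Fibroblast and endothelial markers, from cells known to hold IL-33, summed to 12.20 in mTAMs, 10.14 in pTAMs and 8.90 in BMDM (5 of 9 in mTAMs and 5 of 9 in pTAMs, where the mean of all probe sets gave 2), with *Lum*, *Tek* and *Cldn5* below the floor on all arrays. *Col3a1*, a fibroblast gene and the largest of them in both TAM groups, had 11.09 in mTAMs, 8.15 in pTAMs and 4.75 in BMDM. The endothelial markers did not share that order. *Pecam1* had 5.96 in mTAMs, 7.61 in pTAMs and 3.92 in BMDM, and *Kdr* had 6.42, 6.33 and 7.08. Immediate early and heat shock genes, which tissue dissociation can induce along with cytokine genes, summed to 16.56 in mTAMs, 15.82 in pTAMs and 12.86 in BMDM, and 15 of 15 were called higher in mTAMs and 14 of 15 in pTAMs against BMDM. The part of these cells and of handling in the values of the family was not tested.

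Genes whose pair of differences (pTAMs minus BMDM, mTAMs minus pTAMs) lay nearest to those of a family member were sought among 11555 genes that exceeded the floor on 2 or 3 arrays. Nearest to *Il1r2* were *Arg2* and *Mmp9*, at distances of 0.631 and 0.636 log2 units, of which that of *Arg2* rests on a BMDM value below the floor (4.45). *Il1rap* had *Pag1* and *Tlr2* closest, at 0.022 and 0.081. For *Il1rn* they were *Nfix* and *Nfkbie*, at 0.020 and 0.067. With 3 arrays such likeness is a description of 2 differences.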

How the data were processed

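Total RNA of mTAMs, pTAMs and BMDM was labeled with biotin and hybridized to Affymetrix mouse arrays, 1 array per group. The authors deposited a table of log2 values made with RMA, which corrects background, normalizes between arrays by quantiles and summarizes probe sets (version not given in the sources used here). No depth applies to arrays, and their number limits the precision. Names came from the annotation of the platform (34945 with a single symbol, 932 with several, 9160 with none; only the first kind was used), and 34741 of the gene IDs were found in RefSeq GRCm38.p6. A gene was represented by the probe set of highest mean signal. The floor was the 95th percentile of 83 probe sets of olfactory, vomeronasal and taste receptors (5.3). Genes above it on at least 1 of the arrays compared were called at a log2 difference of 1 on measured values, and where a value did not exceed the floor, the floor took its place and the fold is a lower bound. Of the lists, *Il36a*, *Il36b*, *Il36g*, *Il36rn*, *Irak4*, *Chuk*, *Nlrc4*, *Ly6g*, *Retnlg*, *Cxcr1*, *Trac* and *Lck* were not analysed here.

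The genes of the family, the lists and the rule for names were chosen with earlier results of these data known. Named were all family members and the 2 genes nearest in pattern to *Il1r2*, *Il1rap* and *Il1rn*. The rule also allowed, from each list, at most 4 genes per direction and comparison that differed at least 2-fold, by size. Not all of these were named. Other list genes given for context were chosen after their values were seen. Sequences came from RefSeq promoter windows of GRCm38.p6. The calling was tested on simulated data, with shifts larger than the threshold in genes well above the floor. This says nothing about calls near the threshold or the floor. Alternatives were the mean of a gene's probe sets, median centering, quantile or cyclic loess normalization, no floor, a floor 1 log2 unit higher, values raised to the floor and a 3-fold threshold. R 4.3.3 (limma 3.58.1) and Python 3.11.15 (pandas 2.3.3, numpy 2.4.6, matplotlib 3.10.9) were used.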

Additional observations from a re-analysis of the deposited data

How the results depend on the processing

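No paired analysis was possible because each group had 1 array. Each of 158 gene differences recomputed under an alternative kept its sign, and 4 could not be compared (*Il1r1* with the mean of all probe sets, in the 3 comparisons, and *Il33* in mTAMs against BMDM with the higher floor). The number of family genes at least 2-fold higher was 8 to 9 in mTAMs and 7 to 8 in pTAMs against BMDM, and at a 3-fold threshold it was 8 in mTAMs and 6 in pTAMs. Between mTAMs and pTAMs it was 2 as deposited, 3 with cyclic loess and 0 at a 3-fold threshold. With cyclic loess *Il18* passed 2-fold in pTAMs against BMDM (1.01) and in mTAMs against pTAMs (1.11). *Il33* gave 0.81 in mTAMs and 1.01 in pTAMs against BMDM with BMDM raised to the floor. With the mean of its probe sets, *Il1rap* gave 2.28 in mTAMs against BMDM and 1.21 against pTAMs. Cyclic loess moved the median of all genes in mTAMs against BMDM to -0.002, against -0.11 as deposited, and the share of higher among called genes to 55.1%, against 44.4%. Of 252 recomputed counts over lists, 8 moved by over 1.5 times (mast cell and basophil markers under 2 alternatives, and 1 count each for fibroblast and endothelial, macrophage, T cell, signal chain, maturation, and immediate early and heat shock genes, the last with 5 in place of 3 in mTAMs against pTAMs after cyclic loess).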
